A study of Rattus norvegicus with 8 samples.

Results

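The thick ascending limb salt and claudin genes are 9 genes of salt uptake, hormone sensing and junctional ion passage, namely Slc12a1, Kcnj1, Bsnd, Casr, Ptger3, Cldn10, Cldn14, Cldn16 and Cldn19. They were taken from a list of symbols, and each symbol had 1 probe set among the 23188 transcript probe sets of the rat Clariom S array. RNA of the renal outer medulla and of the renal cortex of male Sprague-Dawley rats, 10 weeks old, was measured on 8 arrays, 1 for each of 2 zones and 4 treatments. The treatments were ethylene glycol-induced nephrolithiasis (EG, ethylene glycol with alfacalcidol for 2 weeks), the same with phlorizin treatment (EG with phlorizin), control with phlorizin treatment (phlorizin), and control. Ethylene glycol is turned into oxalate by the liver, alfacalcidol is a vitamin D analogue, and phlorizin inhibits the sodium-glucose cotransporters. The labels give neither the dose or time of phlorizin nor whether control rats received alfacalcidol. The number of animals behind each array is not given in the labels, and the outer medulla and cortex of one kidney may both have been used. With 1 array per group, a difference between 2 single arrays of a zone has no replicate and carries no p-value.

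The thick ascending limb takes up sodium, potassium and chloride through the cotransporter NKCC2, encoded by Slc12a1. The channel ROMK, encoded by Kcnj1, returns potassium to the tubule fluid, and barttin, the product of Bsnd, is needed for chloride to leave on the blood side. This transport leaves the tubule fluid positively charged, and that charge drives sodium, calcium and magnesium between the cells through pores made by claudins. The claudin-10b isoform passes sodium, and claudin-16 with claudin-19 is needed for calcium and magnesium. The calcium-sensing receptor, encoded by Casr, restrains this transport when blood calcium is high, and in mice it raises claudin-14, which blocks the pores for divalent cations. In humans, inherited loss of SLC12A1, KCNJ1 or BSND causes Bartter syndrome, and loss of CLDN16 or CLDN19 causes hypercalciuria with nephrocalcinosis.

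Values are log2 values made by RMA, a background correction, between-array normalization and probe set summary. Background probes averaged 5.53 to 5.68 on the 8 arrays, and the highest value in the table was 19.7, near which differences can be compressed. Array medians lay between 7.39 and 7.58. The EG array of the cortex had the lowest spike-in controls, with poly-A spikes at 6.42 against 7.46 to 8.23 on the other 7 arrays, and hybridisation spikes at 10.4 against 10.6 to 11.3. All comparisons of EG in the cortex rest on that array, so those of the outer medulla are given beside them. Of the 9 genes, 8 passed the filter on low values (highest of the 8 values at or above 7.54, the median of the whole table), which left 13163 probe sets for testing. Cldn14 did not pass and was below the background probes on every array. Umod, which encodes uromodulin and marks the thick ascending limb, stood at 18.85 in the control outer medulla and 17.33 in the control cortex, so both zones held this segment. Slc12a3, the cotransporter of the distal convoluted tubule, stood at 4.65 in the control outer medulla, below background there, and at 16.07 in the control cortex.

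Promoters are shown for the cotransporter gene, for the receptor gene and the pore gene that were much lower with EG, and for Cldn19, which was higher. Each is the 250 bases before the first start that RefSeq lists for the gene on GRCr8. Capitals mark a CCAAT box (CCAAT) or an HNF1 half-site (GTTAAT), on either strand and without overlap.
Slc12a1, chr3:132859409-132859658, plus strand: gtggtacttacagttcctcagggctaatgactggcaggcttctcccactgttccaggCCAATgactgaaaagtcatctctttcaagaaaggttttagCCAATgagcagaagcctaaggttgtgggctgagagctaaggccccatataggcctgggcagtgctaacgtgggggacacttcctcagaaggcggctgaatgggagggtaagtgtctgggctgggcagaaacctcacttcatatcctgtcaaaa
Casr, chr11:77740364-77740613, plus strand: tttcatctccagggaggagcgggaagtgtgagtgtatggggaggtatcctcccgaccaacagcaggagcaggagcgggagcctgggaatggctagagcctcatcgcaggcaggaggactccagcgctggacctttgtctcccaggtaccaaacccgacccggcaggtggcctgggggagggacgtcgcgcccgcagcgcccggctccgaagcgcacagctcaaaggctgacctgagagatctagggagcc
Cldn10, chr15:102269608-102269857, plus strand: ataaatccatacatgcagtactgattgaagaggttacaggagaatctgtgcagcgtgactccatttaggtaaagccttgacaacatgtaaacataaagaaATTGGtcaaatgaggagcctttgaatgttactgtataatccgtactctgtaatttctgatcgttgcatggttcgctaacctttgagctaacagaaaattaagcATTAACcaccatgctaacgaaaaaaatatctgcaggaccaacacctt
Cldn19, chr5:138148325-138148574, plus strand: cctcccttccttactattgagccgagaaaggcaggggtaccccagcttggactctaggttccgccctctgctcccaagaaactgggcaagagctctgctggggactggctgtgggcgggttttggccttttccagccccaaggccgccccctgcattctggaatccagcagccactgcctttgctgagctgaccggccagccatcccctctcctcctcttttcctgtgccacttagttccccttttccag
The CCAAT box was found upstream of 2 of the 9 genes, Slc12a1 and Cldn10, and upstream of 34.3% of 27457 rat promoters of the same length. The HNF1 half-site was found upstream of Cldn10 alone, against 6.46% of those promoters. None of the 9 windows held the site of estrogen-related receptors (TNAAGGTCA), the cAMP response element (TGACGTCA) or the POU octamer (ATGCAAAT). The bases upstream of these genes ranged in GC content from 38.0% for Cldn10 to 68.4% for Ptger3.

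The question of the zone comparison was where in the kidney these genes are read out. In the outer medulla 7 of the 8 tested genes rose relative to the cortex (limma adjusted p under 0.05), while 32.7% of all tested probe sets rose there, 18.8% fell and 51.5% changed in either direction. Cldn19 averaged 14.70 in the outer medulla and 9.79 in cortex (difference 4.91, SE 0.17, limma adjusted p = 1.24e-05), and Slc12a1 averaged 17.63 and 12.98 (difference 4.64, SE 0.15, adjusted p = 1.06e-05). Both were higher in the outer medulla by more than 4 in each of the 4 treatments. Ptger3, which encodes the prostaglandin E2 receptor EP3, was 3.76 higher in the outer medulla (SE 0.28). Kcnj1 was 2.80 higher (SE 0.14), Cldn10 2.64 (SE 0.23), Cldn16 1.98 (SE 0.20) and Bsnd 1.71 (SE 0.24), with adjusted p-values up to 0.00155. Among those 7 genes Bsnd had the widest span for its size, from 0.89 with EG and phlorizin to 2.34 with phlorizin, and without the treatment block it no longer passed (adjusted p = 0.14).

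**Figure D1:**
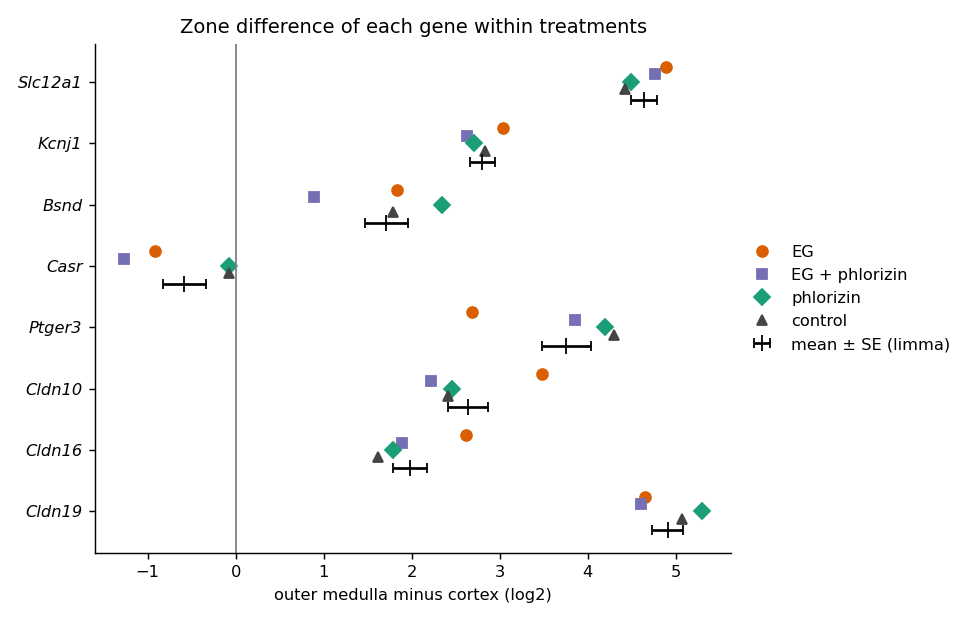
Outer medulla minus cortex on the log2 scale (x axis) for the 8 tested genes (rows), with 1 symbol per treatment and the limma mean with its SE (n = 4 treatments) as a bar. All symbols of 7 genes lie above 0, whereas those of Casr lie at or below 0, between -1.27 and -0.07.

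Casr had another zone pattern. It stood at 11.59 in the control outer medulla and 11.67 in the control cortex, and at 11.30 and 11.37 with phlorizin, so the zones were nearly level without EG. With EG it was lower in the outer medulla than in the cortex, by -0.92 without and -1.27 with phlorizin. Over the 4 treatments the difference was -0.58 (SE 0.24, limma adjusted p = 0.0823), which did not pass. Cldn14, which was not tested, lay between 3.86 and 4.64 on all arrays. No zone difference can be read from values under the background probes.

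**Figure D2:**
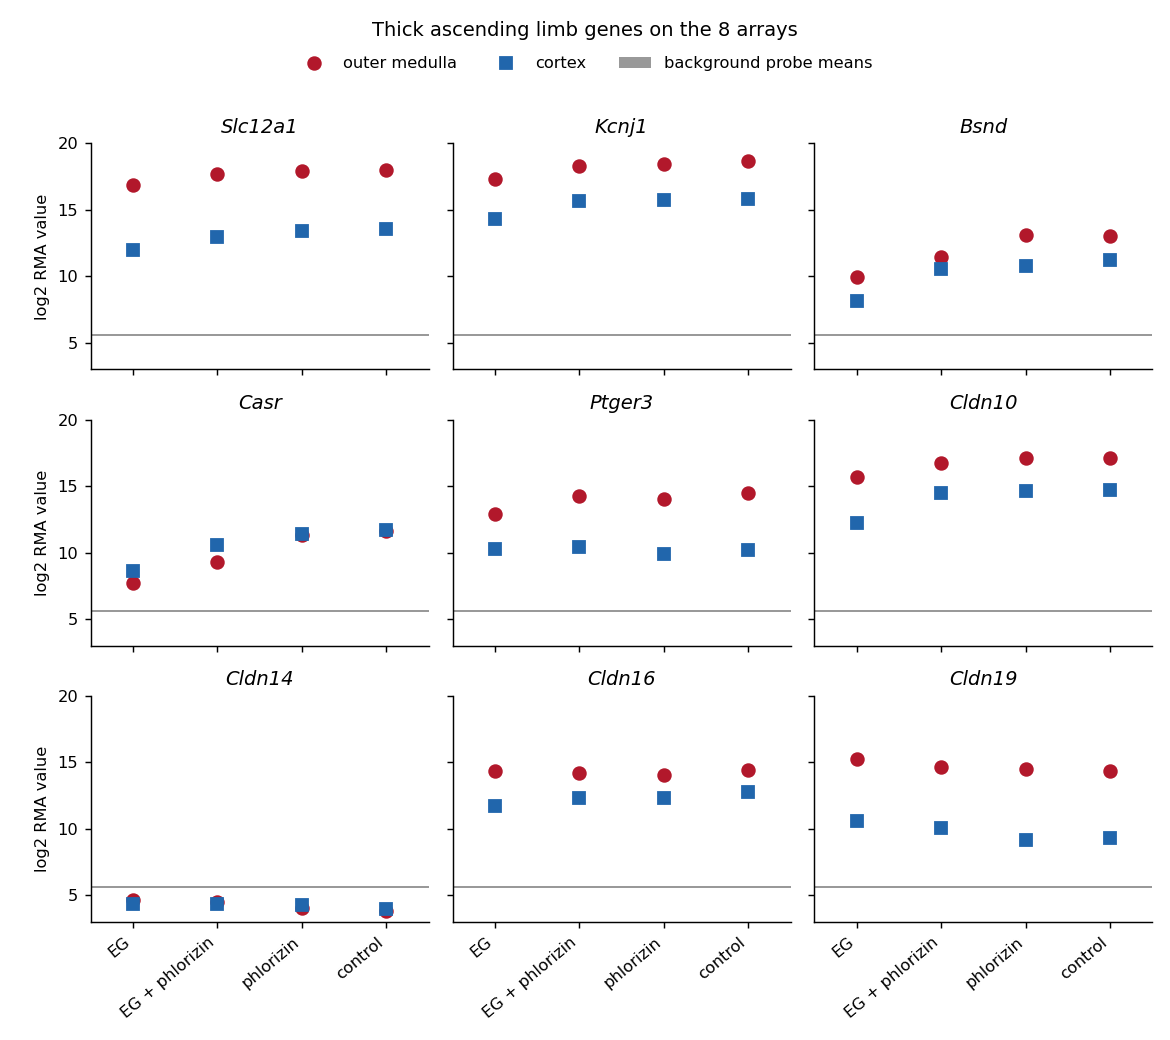
Log2 RMA values (y axis) of the 9 genes by treatment (x axis), with circles for the outer medulla, squares for the cortex, 1 array per symbol and a grey band for the background probe means. The EG arrays are the lowest of their zone for Slc12a1, Kcnj1, Bsnd, Casr and Cldn10 and the highest for Cldn19, and Cldn14 stays under the band.

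The EG comparison asked what became of the limb's genes in the stone model. With EG, 5 of the 8 tested genes were at least 1 lower on the log2 scale in both zones, and 4.47% of all tested probe sets were. These were the cotransporter, both channel genes, Casr and Cldn10. None of the 8 was at least 1 higher in both zones, against 4.9% of all tested probe sets, and 1, Cldn19, was so in the cortex (9.66% of all). The median difference of the 8 genes was -1.35 in the outer medulla and -1.53 in cortex, while over all tested probe sets it was -0.05 and -0.07. In the outer medulla alone, which does not use the cortex EG array, 6 of the 8 genes were at least 1 lower (9.69% of all), with Ptger3 beside those 5. In the cortex 6 were also at least 1 lower (12.7% of all), with Cldn16 beside the 5.

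Among the salt transport genes, Bsnd differed most. In the outer medulla Bsnd stood at 9.96 with EG, 11.47 with EG and phlorizin, 13.14 with phlorizin and 13.04 in the control. In the cortex it stood at 8.13, 10.58, 10.80 and 11.24 in the same order. EG minus control was -3.07 in the outer medulla and -3.11 in cortex, which placed it at the lowest 0.403% and 0.676% of tested probe sets. The barttin gene was thus lowest on the EG array of each zone, with the array of EG with phlorizin next.

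Slc12a1 and Kcnj1 showed the same order with smaller differences. Slc12a1 stood at 16.89 with EG, 17.70 with EG and phlorizin, 17.94 with phlorizin and 17.97 in the control outer medulla, and at 12.01, 12.93, 13.45 and 13.54 in the cortex. Its EG minus control difference was -1.08 in the outer medulla and -1.54 in cortex. For Kcnj1 the outer medulla held 17.35 with EG, 18.30 with EG and phlorizin, 18.48 with phlorizin and 18.66 in the control, and the cortex 14.31, 15.66, 15.77 and 15.83. The differences were -1.31 and -1.52. In the outer medulla both genes lay near the top of the scale, where a difference can be understated.

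Of the receptors, Casr had the largest EG difference of all 9 genes in the outer medulla. It stood there at 7.71 with EG, 9.29 with EG and phlorizin, 11.30 with phlorizin and 11.59 in the control. The cortex held 8.63, 10.56, 11.37 and 11.67. EG minus control was -3.88 in the outer medulla, where 0.0836% of tested probe sets were lower, and -3.04 in the cortex. Ptger3, whose receptor lets prostaglandin E2 curb salt uptake in this segment, differed between EG and control mainly in the outer medulla. It stood there at 12.94 with EG, 14.26 with EG and phlorizin, 14.06 with phlorizin and 14.46 in the control, and in the cortex at 10.26, 10.41, 9.86 and 10.16. The EG differences were -1.52 in the outer medulla and 0.09 in cortex.

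The claudin genes went different ways with EG. Cldn10, whose probe set does not tell the claudin-10a and claudin-10b isoforms apart, stood at 15.72 with EG, 16.74 with EG and phlorizin, 17.10 with phlorizin and 17.12 in the control outer medulla. The cortex held 12.25, 14.52, 14.65 and 14.71, so the EG differences were -1.40 and -2.46. Cldn16 stood at 14.36, 14.19, 14.09 and 14.42 in the outer medulla and at 11.74, 12.30, 12.30 and 12.80 in the cortex, in the same order of treatments. Its EG difference was -0.06 in the outer medulla and -1.06 in cortex.

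Cldn19 was the gene that was higher with EG in both zones. It stood at 15.24 with EG, 14.68 with EG and phlorizin, 14.49 with phlorizin and 14.37 in the control outer medulla, and at 10.60, 10.07, 9.19 and 9.30 in the cortex. EG minus control was 0.87 in the outer medulla and 1.30 in cortex. Set against Cldn16, its partner in the pore, Cldn19 gained 0.93 in the outer medulla and 2.36 in cortex with EG, and set against Slc12a1 it gained 1.95 and 2.83. These are changes of ratios within single arrays and were not tested. In bulk samples they cannot be assigned to the thick ascending limb alone. Cldn14 stood at 4.64 with EG and 3.86 in the control outer medulla and at 4.33 and 3.99 in the cortex, all below the background probes, so no difference is given.

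**Figure D3:**
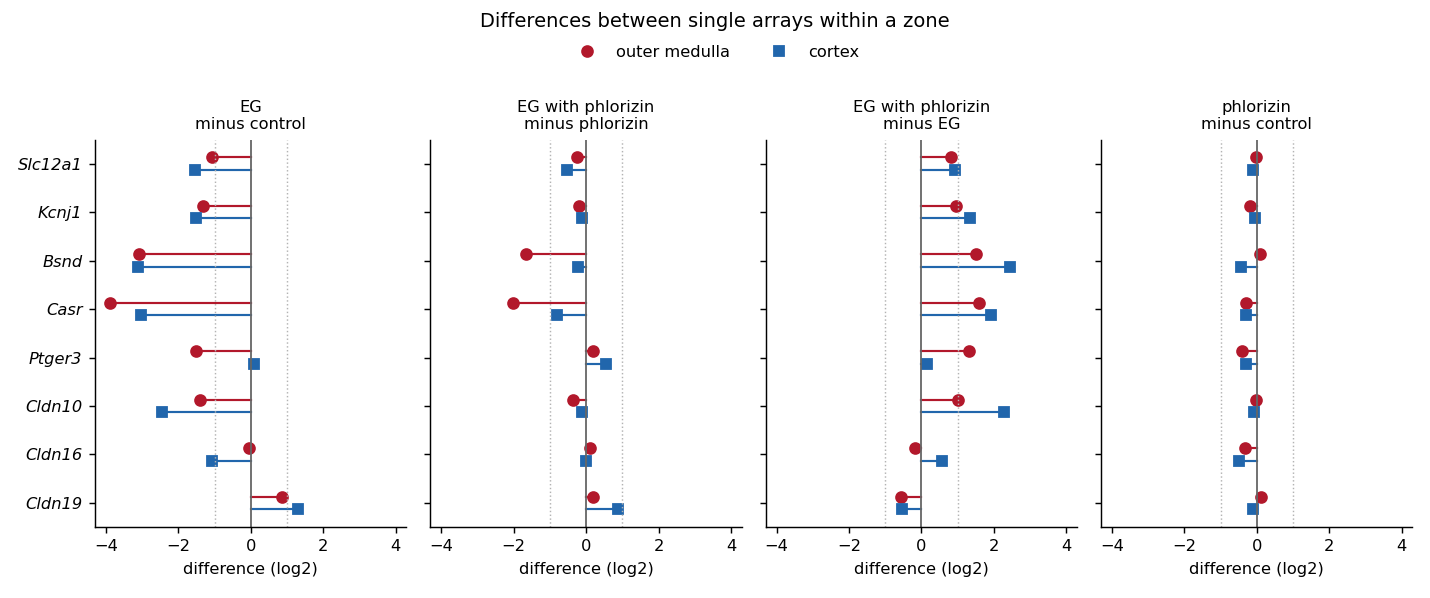
Differences between 2 single arrays of a zone on the log2 scale (x axis) for the 8 tested genes (rows) and 4 comparisons (panels), with circles for the outer medulla, squares for the cortex and dotted lines at 1 and -1. With EG against control 5 genes lie beyond -1 in both zones, and with phlorizin against control no gene lies beyond 1 either way.

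With phlorizin given in both arms, the EG difference was smaller in size than without it in both zones for 6 of the 8 genes, all but Ptger3 and Cldn16. The share of all tested probe sets with a smaller difference was not counted, so this count may not be particular to these genes. Over all tested probe sets, those at least 1 lower with EG in both zones were 4.47% without phlorizin and 0.319% with it. Of the 8 tested genes, 2 were at least 1 lower with EG and phlorizin than with phlorizin in the outer medulla (3.01% of all tested probe sets) and 0 in the cortex (1.55% of all) or in both zones (0.319% of all). They were Casr (-2.01 in the outer medulla and -0.81 in cortex) and Bsnd (-1.67 and -0.22). Slc12a1 differed by -0.24 and -0.51, Kcnj1 by -0.18 and -0.11, and Cldn10 by -0.36 and -0.12. Cldn19 was 0.19 and 0.89 higher, Ptger3 0.20 and 0.55 higher, and Cldn16 differed by 0.10 and -0.01. The median over the 8 genes was -0.21 in the outer medulla and -0.12 in cortex, beside -0.02 and -0.05 over all tested probe sets. The interaction of EG and phlorizin was tested over the 8 arrays with the zone as a factor, which counts the zones of a treatment as separate samples. The EG difference with phlorizin minus that without it was 2.15 for Bsnd (SE 0.48, limma adjusted p = 0.286), 2.05 for Casr (SE 0.48, adjusted p = 0.299), 1.69 for Cldn10 (SE 0.46, adjusted p = 0.354) and 1.27 for Kcnj1 (SE 0.28, adjusted p = 0.286). For Slc12a1, Ptger3, Cldn16 and Cldn19 the adjusted p-values were 0.411 to 0.643. None of the 8 genes and none of all tested probe sets passed (limma, 0.0%), while 5 of the 8 and 9.83% of all were at an unadjusted p under 0.05.

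Among EG animals, those given phlorizin had higher values of most of these genes. In both zones 3 of the 8 were at least 1 higher, against 1.15% of all tested probe sets. Bsnd was higher by 1.50 in the outer medulla and 2.45 in cortex, Casr by 1.58 and 1.93, and Cldn10 by 1.01 and 2.28. Kcnj1 was 0.94 and 1.35 higher and Slc12a1 0.81 and 0.93 higher, while the difference of Ptger3 was 1.33 and 0.15. Cldn19 went the other way by -0.56 and -0.52. Cldn16 differed by -0.17 in the outer medulla and 0.56 in cortex. These values share the EG arrays with the EG comparison and are not independent of it. At least 1 higher were 4 of the 8 genes in the outer medulla (3.35% of all) and 4 in the cortex (7.35% of all).

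Phlorizin without EG was accompanied by small differences. None of the 8 genes was 1 or more lower or higher than the control in either zone, while over all tested probe sets 0.205% were that much lower and 0.577% that much higher in the outer medulla, and 0.501% and 0.653% in the cortex. The widest differences were those of Cldn16 (-0.33 in the outer medulla and -0.49 in cortex), Bsnd (0.10 and -0.45) and Ptger3 (-0.40 and -0.30). Of the 8 genes 6 had values below the control in both zones, by any size, and that share of all tested probe sets was not counted. The medians over the 8 were -0.11 in the outer medulla and -0.21 in cortex, beside -0.01 and -0.06 over all tested probe sets. Casr differed by -0.30 in each zone, Kcnj1 by -0.18 and -0.05, Cldn19 by 0.12 and -0.11, Slc12a1 by -0.03 and -0.09, and Cldn10 by -0.02 and -0.06.

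For a test, the zones of each treatment were averaged, and the 2 averages with EG were set against the 2 without it, with phlorizin as a covariate. That fit has 1 residual degree of freedom, which is the interaction of EG and phlorizin. None of the 8 genes passed (limma, adjusted over all 13163 probe sets), and 0.038% of all tested probe sets did. Casr differed by -2.43 (SE 0.47, adjusted p = 0.0838) and Bsnd by -2.02 (SE 0.49, adjusted p = 0.101). Next came Cldn19 with 0.81 (SE 0.24, adjusted p = 0.127) and Slc12a1 with -0.84 (SE 0.28, adjusted p = 0.159). Cldn10, Kcnj1, Cldn16 and Ptger3 had adjusted p-values of 0.188 to 0.79. At an unadjusted limma p under 0.05 there were 5 of the 8 genes, beside 22.7% of all tested probe sets. The calls depended on the setting: Casr and Bsnd passed with arrays centred on their medians (adjusted p = 0.0213 and 0.0346) and in the outer medulla alone (0.0411 and 0.0421), and Casr passed without the filter (0.0346). With the 8 arrays as samples Casr, Bsnd and Cldn19 passed, and none did once the cortex EG array was left out. No label names separate animals, so the p-values given here may not measure the spread between animals. In this fit the residual is the interaction of EG and phlorizin, so an interaction and noise cannot be told apart in it. An interaction can enlarge the SE of the EG difference, so a gene that did not pass is not shown to be unchanged.

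In the same fit, phlorizin against no phlorizin gave no call among the 8 genes or among all 13163 probe sets (0.0% by limma, with 468, or 3.56%, at an unadjusted p under 0.05). The largest differences were those of Bsnd, 0.90 (SE 0.49), and Cldn10, 0.80 (SE 0.40), each with an adjusted p of 0.995. For Casr, Kcnj1, Slc12a1, Ptger3, Cldn16 and Cldn19 the adjusted p was 0.995 or 0.996. Whether the EG difference itself differed between the zones was tested on the outer medulla minus cortex difference of each treatment. None of the 8 genes passed, nor did any of the 13163 probe sets (limma, 0.0%, with 1627, or 12.4%, at an unadjusted p under 0.05). Casr had the smallest p of the 8 (-1.02, SE 0.28, adjusted p = 0.318), followed by Ptger3 (-0.98, SE 0.39, adjusted p = 0.41). For Cldn19, Cldn16, Bsnd, Slc12a1, Cldn10 and Kcnj1 the adjusted p-values were 0.487 to 0.941.

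Other genes of the limb were mostly lower with EG as well. Of 9 tested markers of the segment other than these genes, 6 were at least 1 lower with EG in both zones and 0 at least 1 higher. Over all tested probe sets 4.47% were that much lower and 4.9% that much higher. The medians of the markers were -2.44 in the outer medulla and -1.20 in cortex. Kcnj10, the potassium channel of the blood side, differed by -5.20 in the outer medulla and -4.06 in cortex, reaching 5.76 and 5.98 on the EG arrays, close to background. Egf, the growth factor made in this segment, differed by -3.25 and -4.11, and Tmem72 by -2.76 and -1.97. The nuclear receptor gene Esrrb differed by -3.62 and -1.20, and as its cortex EG value of 4.84 lay below background, the cortex difference, which is also the median of the markers there, is not exact. Among 7 tested partners in salt transport, 4 were at least 1 lower in both zones (4.47% of all). They were Kcnj10, which is also counted among the markers, Slc9a3, Slc16a7 and Kcnj16. Slc9a3, encoding the sodium-proton exchanger NHE3, differed by -3.54 and -1.79, and Slc16a7, a monocarboxylate transporter, by -2.72 and -2.19. Kcnj16, a potassium channel subunit, differed by -1.88 and -1.01. It stood at 14.51 in the control outer medulla and higher, at 15.86, in the control cortex, so its difference cannot be assigned to the limb alone. With phlorizin in both arms, 0 of the 9 markers and 0 of the 7 partners were at least 1 lower with EG in both zones, beside 0.319% of all tested probe sets. In the outer medulla 3 of the 9 markers were (3.01% of all), Kcnj10 (-2.38), Esrrb (-1.74) and Ppp1r1b (-1.17), and 1 of the 7 partners, Kcnj10. Of the markers 8 had lower values with EG in both zones, by any size, and that share of all tested probe sets was not counted.

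Regulators of the cotransporter were less uniform. Of 14 tested, 3 were at least 1 lower with EG in both zones (4.47% of all) and 0 at least 1 higher (4.9%). The medians of the regulators were -0.64 in the outer medulla and -0.48 in cortex. Sorl1, a sorting receptor that acts on NKCC2 in mice, differed by -2.21 and -1.40, and Cab39l, a partner of the kinases that switch NKCC2 on, by -1.43 and -1.12. Beside Sorl1 and Cab39l, the 3 included Ptgs2 (-2.19 and -2.45), which is also counted among the genes of prostaglandin E2. Stk39, which encodes one of these kinases, SPAK, differed by -1.85 and -0.93 and was not among the 3. Of 10 tested genes of calcium and magnesium handling, 1 was lower and 1 higher by at least 1 in both zones. Over all tested probe sets the shares were 4.47% and 4.9%. Cnnm2, a gene of magnesium handling, differed by -1.13 and -1.58. Trpv5, a calcium channel of the distal tubule, was higher by 8.28 in the outer medulla, where its control value of 5.48 lay below background and the difference is not exact, and by 2.41 in the cortex.

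**Figure D4:**
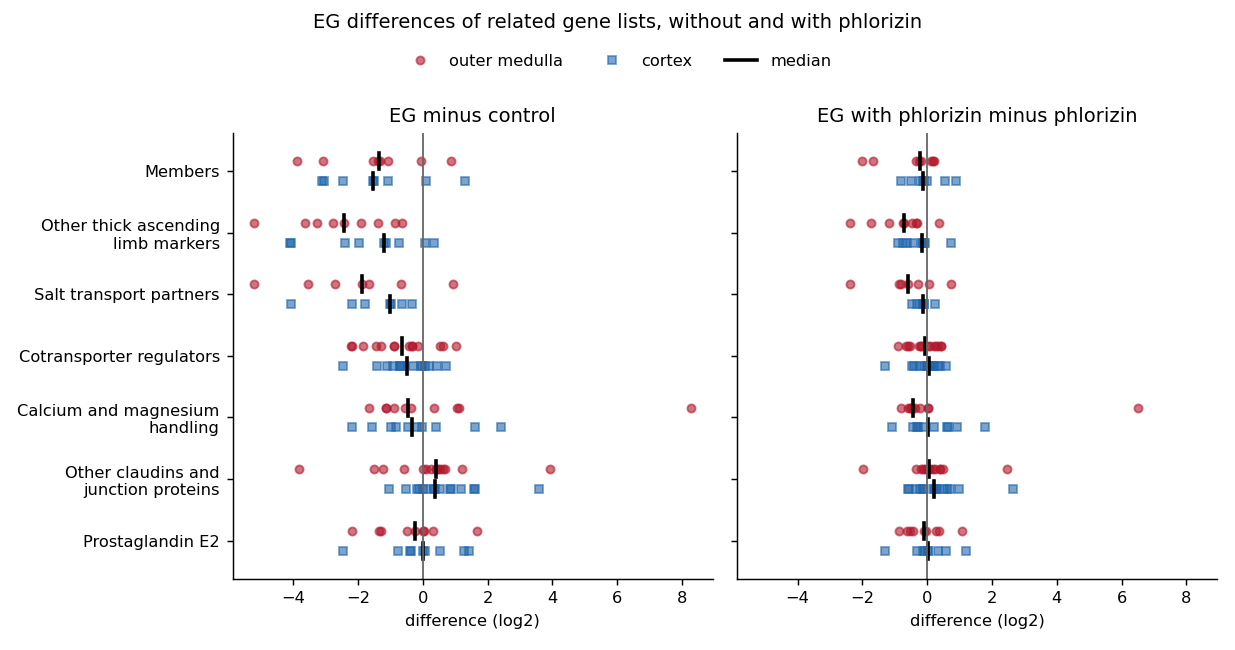
EG differences on the log2 scale (x axis) of the 8 tested genes and of 6 related gene lists (rows), without phlorizin (left) and with it (right), with circles for the outer medulla, squares for the cortex and black bars for medians. Medians of the 8 genes are -1.35 and -1.53 on the left and -0.21 and -0.12 on the right.

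Markers of some other cells and of injury also differed on the EG arrays. Of the tubule injury list, 6 of 7 tested genes exceeded the control by at least 1 with EG in both zones (4.9% of all). Havcr1, which encodes KIM-1, led them with 7.71 in the outer medulla and 9.23 in cortex. All 5 tested fibroblast markers and 7 of 8 macrophage markers were at least 1 higher with EG in both zones. The mean log2 level of the fibroblast markers was 16.21 with EG and 13.16 in the control outer medulla, and 15.01 and 12.04 in the cortex. For macrophage markers it was 11.38 and 9.24 in the outer medulla, and 10.81 and 8.11 in the cortex. Lum, of the fibroblast list, lay below background on all arrays. Intercalated cell markers were lower, 6 of 8 by at least 1 in both zones (4.47% of all). Their median was -2.12 in the outer medulla and -2.71 in cortex, and these cells also use barttin. Of 8 convoluted proximal tubule markers 1 was that much lower in both zones. So were 1 of 6 for principal cells, 1 of 6 for the thin limb and 1 of 5 for podocytes. It was 2 of 6 for endothelium and 2 of 4 for red cells. Of 4 distal convoluted tubule markers 1 was lower and 1 higher, and 3 of 4 cell cycle genes were higher. A count in both zones can miss differences of cells found mainly in the cortex. Lower in the outer medulla by the zone test were 8 of 8 proximal, 3 of 5 podocyte and 3 of 4 distal convoluted markers. In the cortex alone 3 of 5 podocyte markers were at least 1 lower with EG (median -1.29, 12.7% of all). So were 2 of 4 distal convoluted (median -0.82) and 1 of 8 proximal markers (median -0.68). In these bulk samples fewer cells of the limb and less RNA per cell cannot be told apart, and the part of other cells in the differences was not tested.

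The 8 tested genes were also set beside all other named genes by Pearson's r over the 8 arrays, after each zone was centred on its own mean. These r values describe few arrays, which share treatments, and many genes reach high values. Nearest to Casr were genes of mitochondrial energy supply, Ndufa5, Idh3b and Cox6a1, each with r of 0.997. Nearest to Kcnj1 were Thrb, a thyroid hormone receptor gene (0.997), Egf (0.994) and Mgll (0.992). Slc12a1 lay nearest to Pxmp2, Tex36 and Ecrg4 (0.992 to 0.997), and Bsnd to Tmem86a, Prkce and Cox5b (each 0.997). Cldn10 lay nearest to Tgfbrap1, Lias and Tfb2m (0.993 to 0.996), Ptger3 to Ppp4r3a, Rab11fip1 and Prpf40b (0.967 to 0.984), and Cldn16 to Emc3, C15h14orf119 and Vps26c (0.975 to 0.977). Cldn19 lay nearest to C1s, a complement protease gene (0.996), the cytokine gene Il24 (0.992) and Fgb, a fibrinogen chain gene (0.992). Among the 8 genes themselves, Cldn19 ran opposite to Slc12a1 (r = -0.967) and Cldn16 more loosely with it (0.632).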

How the data were processed

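The values deposited by the authors are log2 values, and the submitters' processing notes name RMA without a software version. That the base is 2 was read from their range (2.28 to 19.7). Of 24834 probe sets, 1646 that are no transcripts were set aside. Symbols came from the platform annotation (15049 probe sets had 1, 8139 none). For 10 symbols with several probe sets, the one with the highest mean stood for the gene. Values were used without further normalization. All tests were fitted in limma 3.58.1 (R 4.3.3), 2-sided, with p-values Benjamini-Hochberg adjusted over 13163 probe sets. They were also run on simulated data with independent noise. For the EG and phlorizin fits no interaction was added there, so that run does not show how these fits behave on the real arrays. The test of the EG by phlorizin interaction was added after seeing the data. The zone fit held the treatment as a block, with 3 residual degrees of freedom. Differences between single arrays were counted at 1 on the log2 scale. The 8 tested genes are named in every comparison, and Cldn14 by its values. Of each related list, up to 4 genes with the largest mean EG difference are named, and of the alike genes the nearest 3. The members, lists and promoter motifs were chosen with earlier results of these data known. The number of arrays limits the precision. Python 3.11.15 with pandas 2.3.3 and numpy 2.4.6 was used for counts. Alternatives were quantile normalization, median centring, other filters and variance models, single zones, left-out treatments and other size thresholds.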

Additional observations from a re-analysis of the deposited data

How the results depend on the processing

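Quantile normalization and median centring moved no EG or phlorizin difference of a gene within a zone by more than 0.24, and left 5 genes lower with EG and 3 higher with phlorizin among EG animals, in both zones. With a size of 2, these counts were 2 and 0, and with a size of 0.5 the second was 6 and that for EG under phlorizin 1. The limma count of EG over all probe sets was 5, and it was 0 with quantile normalization, 872 with median centring (485 higher and 387 lower), 631 with no filter, 59 with a variance trend, 1103 with the 8 arrays as samples, 355 in the outer medulla alone, and 275 with the 8 arrays without the cortex EG array, a setting chosen after seeing the data. Genes of the limb called were 2, 1, 3 and 2 with median centring, no filter, 8 arrays and the outer medulla alone. For the EG effect on the zone difference the counts were 9, 4, 2 and 48 with quantile normalization, no filter, a filter on the mean and a variance trend. The cause of these shifts was not tested. The direction turned for Ptger3 (EG effect 0.32, phlorizin effect -0.0764) and Cldn16 (phlorizin effect 0.0328) in the cortex alone, and for Cldn16 (EG effect 0.0209) in the outer medulla alone. Leaving out each treatment in turn kept 7 genes called between zones, and 4667 to 7480 probe sets. A second probe set could not be tried, as each gene had 1. No pairing by animal was possible because the labels number no replicates, so zones were paired by treatment only. The zone fit did this with a treatment block, without which Bsnd had a limma adjusted p of 0.14. The EG and phlorizin fits used averages of the zones, and the test of the zone difference used their differences. The EG by phlorizin interaction was called for 0 probe sets, and for 2 without the cortex EG array, with none of the limb genes in either. Cldn14 is limited by its signal, which lay below background.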

Other observations

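Of 9 tested genes of prostaglandin E2, the ligand of the EP3 receptor, 1 was lower and 1 higher by at least 1 with EG in both zones, beside 4.47% and 4.9% of all tested probe sets. The medians of the list were -0.24 in the outer medulla and -0.01 in cortex. The lower gene was Ptgs2, which encodes the inducible cyclooxygenase and is also counted among the regulators of the cotransporter. It stood at 10.94 with EG, 14.39 with EG and phlorizin, 14.13 with phlorizin and 13.14 in the control outer medulla. In the cortex it stood at 6.89, 7.63, 8.92 and 9.34, so EG minus control was -2.19 and -2.45. The higher gene, Hpgd, the enzyme that breaks prostaglandins down, was higher with EG by 1.67 in the outer medulla and 1.27 in cortex.

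Other claudins and junction proteins had medians of 0.40 in the outer medulla and 0.37 in cortex with EG. Of 15 tested, 1 was at least 1 higher in both zones (4.9% of all tested probe sets) and 0 lower (4.47% of all). The zones differed. In the outer medulla alone 3 were at least 1 lower (9.69% of all) and 2 at least 1 higher, for which the share of all is not given here. In the cortex alone 1 was at least 1 lower (12.7% of all) and 4 at least 1 higher (9.66% of all). Cldn6, a claudin known from embryonic epithelia, was 3.91 and 1.60 higher. For Cldn4 the difference was 0.41 in the outer medulla, where its control value was 12.68, and 3.59 in the cortex. Cldn23 differed by -3.83 in the outer medulla, with 7.55 with EG and 11.38 in the control, and by -0.11 in the cortex. These are single arrays with no test.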
